A study of Mus musculus with 7 samples.

Results

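Genes of peripheral neurons and of Schwann cells, the glia that wrap peripheral nerves, were followed in pancreatic islets of 7-day-old mice. The members are 8 genes, Stmn2, Prph, Stum, Tubb3, Gap43, Th, Sox10 and S100b, out of 49315 mouse genes in the count files, and every member was found in every library. Stum and Stmn2 were chosen by their lower counts in βNrf2KO pools in this same comparison, so their values in it are given as a description, with no test. The other 6 were included for the cell type they mark. The tissue came from mice with Nrf2 deleted in their β-cells (βNrf2KO, 4 pools numbered 1, 2, 3 and 4) and from Nrf2lox/lox control mice, which carry the loxP-flanked gene undeleted (3 pools numbered 1, 2 and 4). Each library was a pool of RNA from 5 animals, and the labels give no treatment. The labels do not name the promoter that drives Cre, and no group carries Cre without the loxP-flanked gene, so the deletion and the Cre transgene cannot be told apart.

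Islets receive sympathetic, parasympathetic and sensory fibres, and a sheet of Schwann cells lies around the mouse islet. Most cell bodies of these neurons lie in ganglia outside the islet, and their axons carry only part of the cell's RNA. Endocrine cells of the islet share much of the neuronal programme, including synaptic vesicle proteins and some enzymes of amine synthesis, so a neuronal gene in an islet library need not come from a nerve. Nrf2, encoded by Nfe2l2, is a transcription factor that turns on antioxidant genes through the antioxidant response element.

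The libraries held 18187382 to 20847474 counts in βNrf2KO pools and 21603654 to 25373105 in control pools. Counts from the mitochondrial genome made up 10.02% to 27.7% in βNrf2KO pools and 14.6% to 51.8% in control pools, with the highest share in control pool 2. Summed markers of β-cells stood at 128080 to 168626 TPM (counts scaled to exonic length and library, here with the mitochondrial genome left out) in βNrf2KO pools, against 60005 to 177771 TPM in control pools, with the lowest sum in control pool 2. Counts over the whole of Nfe2l2 gave a log2 fold change of βNrf2KO over control of 0.08 ± 0.23 (SE, edgeR adjusted p = 0.911). The deleted exons are not given in the sources used here, so this value does not check the deletion. Cre sequence had 23 to 73 counts in each βNrf2KO pool and 0 in each control pool.

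The bases upstream of a gene's start show whether the motif of the deleted factor lies there, and 5 of the 8 members (Prph, Stum, Tubb3, Th and S100b) had an entry in the RefSeq promoter table (GRCm38.p6). The 250 bases before the start of 3 of them are shown because each holds a searched motif, printed 5′ to 3′ on the gene's strand with the motif in capitals. In Stum (chr1:180483505-180483754, minus strand) the capitals mark the core of the antioxidant response element, TGACNNNGC, read on the opposite strand at 40 to 32 bases before the start. In Prph (chr15:99054924-99055173, plus strand) they mark a TATA box, TATAAA, at 31 to 26 bases before the start. In Th (chr7:142899996-142900245, minus strand) they mark the cyclic AMP response element, TGACGTCA, at 45 to 38 bases before the start.
Stum: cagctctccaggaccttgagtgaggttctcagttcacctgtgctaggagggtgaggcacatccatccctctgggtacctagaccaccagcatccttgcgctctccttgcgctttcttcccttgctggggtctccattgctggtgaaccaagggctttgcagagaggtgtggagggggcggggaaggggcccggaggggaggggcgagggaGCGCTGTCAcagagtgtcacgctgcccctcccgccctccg
Prph: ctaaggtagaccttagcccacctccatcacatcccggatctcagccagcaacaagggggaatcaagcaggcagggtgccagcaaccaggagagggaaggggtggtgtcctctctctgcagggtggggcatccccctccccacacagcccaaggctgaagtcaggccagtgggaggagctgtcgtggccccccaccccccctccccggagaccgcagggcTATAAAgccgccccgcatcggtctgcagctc
Th: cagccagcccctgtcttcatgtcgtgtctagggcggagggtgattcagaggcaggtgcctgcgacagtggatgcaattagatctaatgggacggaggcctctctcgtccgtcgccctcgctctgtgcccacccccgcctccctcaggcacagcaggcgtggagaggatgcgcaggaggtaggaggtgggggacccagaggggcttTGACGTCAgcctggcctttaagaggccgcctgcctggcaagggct

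Both strands were searched, and no match of one motif overlapped a match of another in these windows. The antioxidant response element core occurred in 1 of the 5 promoters searched, that of Stum, and in 10.2% of 32851 promoter windows of the same length. TATAAA occurred in 12.4% of all windows and TGACGTCA in 1.55%. A match describes letters in this window and is not evidence of binding. The RefSeq starts of Th and Tubb3 lie inside the genes as the deposited counts bound them, so their windows belong to the RefSeq transcripts.

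Of the 6 genes included for their cell type, 5 had lower estimates in βNrf2KO than in control islets, and Stum and Stmn2 were lower as well, since that is what chose them. Stum (0.443 of the control level), S100b (0.447), Prph (0.470) and Stmn2 (0.489) lay furthest below, Gap43 (0.612) and Sox10 (0.633) less far, and Tubb3 (0.834) and Th (1.03) near the control level. None of the 6 passed the test across all genes. Among all genes tested, 0 of 19893 (0%) had an adjusted p under 0.05 in edgeR's quasi-likelihood test, and 0.571 was the smallest. In islet RNA, fewer cells of a type and less RNA per cell cannot be told apart. For the 6 genes named above by cell type, every βNrf2KO pool lay below every control pool in 1 case, Prph, against 3.81% of all tested genes, and 5 had an estimate below 0, against 50.6% of all genes. Stum, which did not overlap either, and Stmn2 were chosen on this contrast and stand outside these counts.

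**Figure D1:**
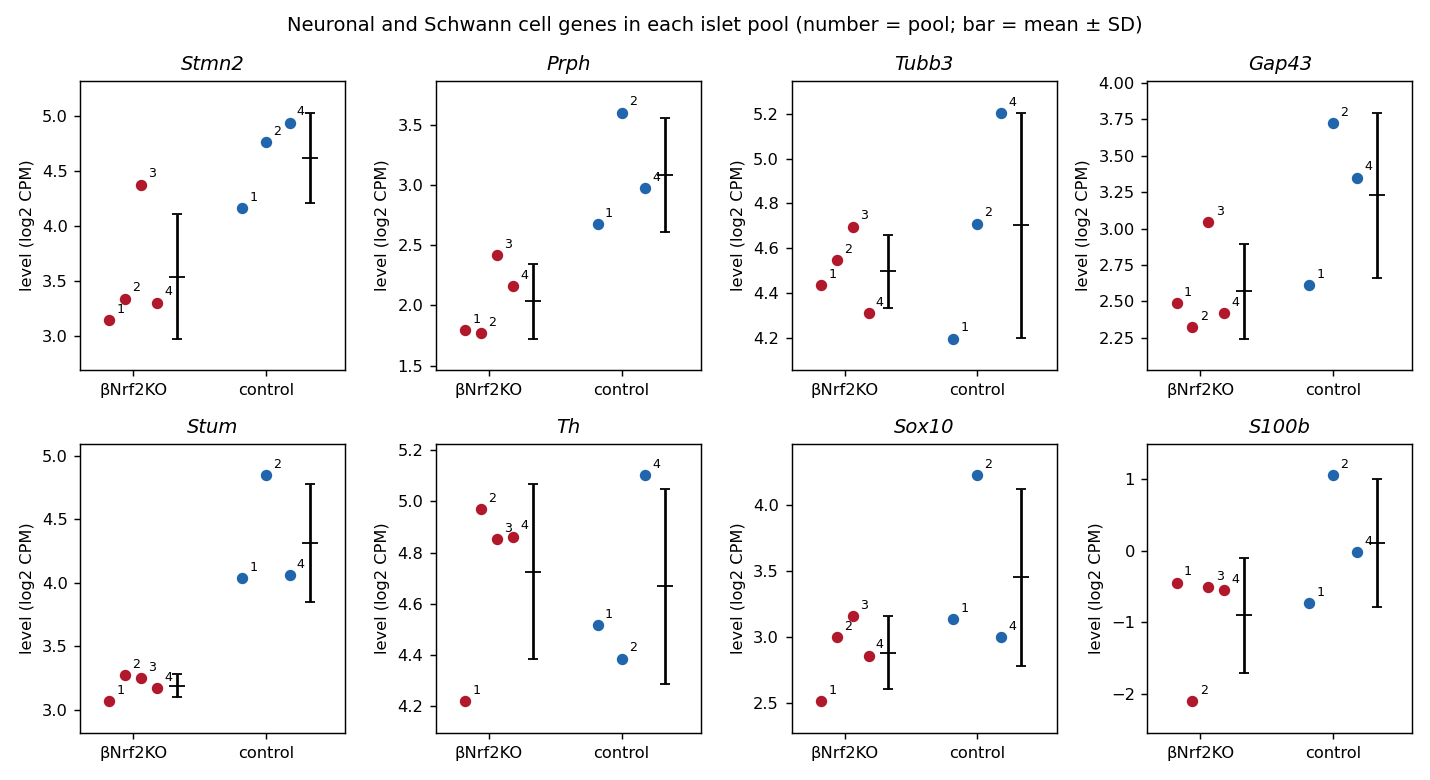
Level of each of the 8 genes (log2 CPM, that is counts scaled to library size, y axes with their own ranges) in the 4 βNrf2KO pools (red, left) and the 3 control pools (blue, right). Each point is a pool with its number, and bars give the mean ± SD. Only Stum and Prph show no overlap of the groups, and control pool 2 is the highest pool for 5 of the 8 genes.

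The axonal genes come first. Stmn2 (ENSMUSG00000027500, chr3:8509360-8561606, plus strand, 5 merged exons) encodes stathmin 2, which binds tubulin and regulates microtubules in growing axons. It had 3.14, 3.34, 4.38 and 3.30 log2 CPM (counts scaled to library size) in βNrf2KO pools 1, 2, 3 and 4, against 4.16, 4.76 and 4.94 log2 CPM in control pools 1, 2 and 4. The βNrf2KO pool with no control of its own number, pool 3, lay inside the control range, and the other 3 lay below it. The log2 fold change was -1.03 ± 0.31 (SE). Between pools of the same number the difference in log2 CPM was -1.02 for number 1, -1.43 for number 2 and -1.64 for number 4, and blocking on the number gave -1.38 ± 0.19 (SE). The blocked fit called 14 of 19893 genes (0.0704%), Stmn2 among them, but this contrast is what chose Stmn2, so nothing is read from the call.

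Prph (ENSMUSG00000023484, chr15:99055174-99058978, plus strand, 8 merged exons) encodes peripherin, an intermediate filament of peripheral neurons. It had 1.79, 1.77, 2.42 and 2.16 log2 CPM in βNrf2KO pools 1 to 4, against 2.68, 3.61 and 2.98 log2 CPM in control pools 1, 2 and 4. The groups did not overlap, and the nearest pools were βNrf2KO pool 3 and control pool 1. This gave a log2 fold change of -1.09 ± 0.28 (SE), which did not pass the test over all genes (edgeR adjusted p = 0.571). It was lower in all 3 pairs of the same number, by -0.89, -1.83 and -0.82 in log2 CPM. The fitted value was -0.79 without control pool 2.

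Gap43 (ENSMUSG00000047261, chr16:42248442-42340651, minus strand, 4 merged exons) encodes a membrane protein of growth cones, which Schwann cell precursors also make. Its level was 2.49, 2.32, 3.04 and 2.42 log2 CPM in βNrf2KO pools 1 to 4, against 2.61, 3.73 and 3.35 log2 CPM in control pools 1, 2 and 4. Only βNrf2KO pool 3 lay above the lowest control pool, pool 1. Its log2 fold change of -0.71 ± 0.29 (SE) did not pass the test (edgeR adjusted p = 0.571), and it was -0.45 ± 0.30 without control pool 2.

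Tubb3 (ENSMUSG00000062380, chr8:123411424-123422015, plus strand, 4 merged exons) encodes the β-tubulin that is used as a general marker of neurons. It had 4.43, 4.55, 4.70 and 4.31 log2 CPM in βNrf2KO pools 1 to 4, against 4.20, 4.71 and 5.20 log2 CPM in control pools 1, 2 and 4. All 4 βNrf2KO pools lay inside the control range. On the fitted scale the difference was -0.26 ± 0.23 (log2 fold change ± SE, edgeR adjusted p = 0.689), and it turned to 0.026 without control pool 4.

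Stum (ENSMUSG00000053963, chr1:180432387-180483504, minus strand, 7 merged exons) encodes a membrane protein whose Drosophila counterpart acts in stretch-sensing neurons. It had 3.07, 3.28, 3.25 and 3.17 log2 CPM in βNrf2KO pools 1 to 4, against 4.04, 4.85 and 4.06 log2 CPM in control pools 1, 2 and 4. The βNrf2KO pools were tight around their mean (3.19 ± 0.09, SD, n = 4), and every control pool lay above them. The log2 fold change was -1.18 ± 0.23 (SE), and -0.86 without control pool 2, which was the highest. DESeq2 called 2 of 19884 genes (0.0101%), Hmcn2 and Stum, and from this call nothing is read either, since the same contrast chose Stum.

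Th (ENSMUSG00000000214, chr7:142892752-142931128, minus strand, 14 merged exons) encodes tyrosine hydroxylase, the rate-limiting enzyme of catecholamine synthesis, which marks sympathetic neurons and is also made by some mouse β-cells. It had 4.22, 4.97, 4.85 and 4.86 log2 CPM in βNrf2KO pools 1 to 4, against 4.52, 4.38 and 5.10 log2 CPM in control pools 1, 2 and 4. The groups overlapped over most of their range, and the lowest pool of all was βNrf2KO pool 1. The log2 fold change was 0.05 ± 0.23 (SE, edgeR adjusted p = 0.950), and it lay on the other side of 0 in 4 of the alternative settings. Other genes that a noradrenergic fibre needs were near 0: Dbh, the enzyme that makes noradrenaline, had 0 to 8 counts in βNrf2KO pools and 0 to 4 in control pools. The noradrenaline transporter gene Slc6a2 had 0 to 5 counts in βNrf2KO pools and 1 to 12 in control pools.

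Both Schwann cell genes had lower estimates that overlapped between the groups. Sox10 (ENSMUSG00000033006, chr15:79154913-79164490, minus strand, 4 merged exons), a transcription factor of the neural crest that Schwann cells keep, had 2.51, 3.00, 3.15 and 2.86 log2 CPM in βNrf2KO pools 1 to 4, against 3.13, 4.22 and 3.00 log2 CPM in control pools 1, 2 and 4. Control pool 2 stood above all other pools, and the other 2 control pools lay within the upper part of the βNrf2KO range. The log2 fold change was -0.66 ± 0.30 (SE, edgeR adjusted p = 0.571), and -0.17 without control pool 2.

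S100b (ENSMUSG00000033208, chr10:76253853-76261159, plus strand, 3 merged exons), which encodes a calcium-binding protein of glia, had 12, 3, 13 and 16 counts in βNrf2KO pools 1 to 4, against 9, 30 and 27 counts in control pools 1, 2 and 4. At counts this low the estimate is loose, and the groups overlapped at control pool 1. Fitted over all pools, the log2 fold change was -1.16 ± 0.60 (SE, edgeR adjusted p = 0.572), and -0.53 without control pool 2. In that control pool, summed markers of smooth muscle and pericytes reached 1699 TPM, against 619 to 990 TPM in βNrf2KO pools and 674 and 1101 TPM in the other control pools. The part that these cells, or the mitochondrial share of that pool, have in the Schwann cell values was not tested.

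**Figure D2:**
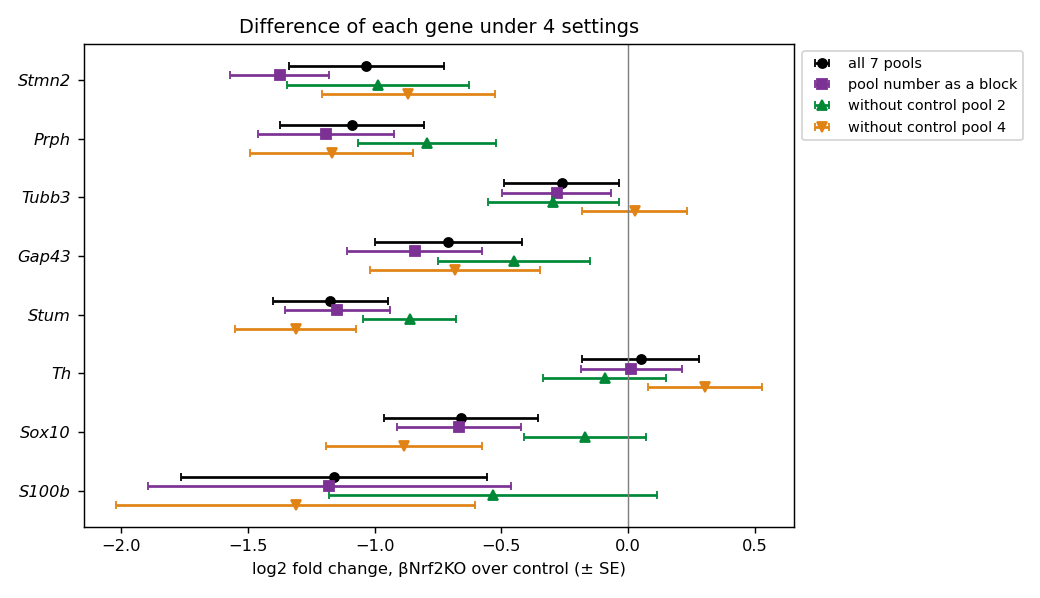
Log2 fold change of βNrf2KO over control (x axis, bars ± SE) of the 8 genes (rows) in all 7 pools (black), with the pool number as a block (purple), and without control pool 2 (green) or 4 (orange). Stum, Prph and Stmn2 keep values between -0.79 and -1.38 in these 4 settings, while Sox10 moves to -0.17 without control pool 2.

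Of the 6 genes included for their cell type, 0 passed an adjusted p of 0.05 in edgeR, in DESeq2, in limma-voom or with the pool number as a block. At an unadjusted p under 0.05 there were 2, Prph and Gap43, both lower, against 8.46% of all genes (5.23% lower and 3.23% higher). With adjusted p-values from 0.571 to 0.950, neither a difference nor its absence was shown for any of them.

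Levels of different genes were compared per exonic length. Tubb3 had the highest level, at 55.4 ± 6.0 TPM in βNrf2KO pools and 62.1 ± 22.6 TPM in control pools (SD, n = 4 and 3). Th followed at 52.5 ± 13.1 TPM in βNrf2KO and 47.1 ± 14.3 TPM in control pools. Tubb3 exceeded Th in 5 of 7 pools, so their order is within the spread. Gap43 came next, at 17.9 ± 4.2 TPM in βNrf2KO and 27.4 ± 9.8 TPM in control pools. Sox10 (12.5 and 18.4 TPM), Prph (10.05 and 19.95 TPM) and Stmn2 (10.04 and 19.2 TPM, means in βNrf2KO and in control pools) did not separate, since each exceeded the next in 5 and 4 of 7 pools. Stum averaged 5.64 ± 0.57 TPM in βNrf2KO and 11.9 ± 3.9 TPM in control pools, below Stmn2 in all 7. S100b came last with 1.52 ± 0.72 TPM in βNrf2KO and 3.24 ± 2.13 TPM in control pools. In the ranking of all tested genes by mean TPM, Tubb3 stood at percentile 87.3 and S100b at 14.1. All 8 passed edgeR's filter on low counts, and S100b alone failed a filter of 1 CPM in 3 pools.

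**Figure D3:**
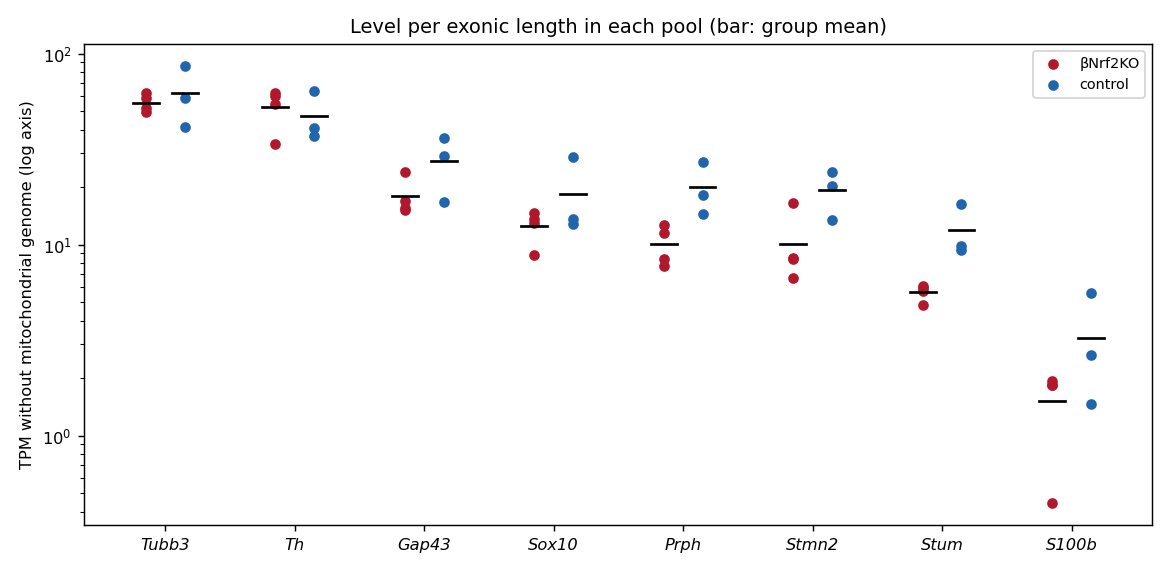
Level per exonic length (TPM without the mitochondrial genome, log axis) of the 8 genes in order of their mean over 7 pools, with βNrf2KO pools in red at the left and control pools in blue at the right of each gene. Bars give group means. Tubb3 and Th lie above all others in every pool, and S100b below all others.

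The wider axonal list held 17 tested genes besides the members, and none was called at an adjusted p of 0.05. Estimates were below 0 for 13 and above 0 for 4, with a median log2 fold change of -0.19, against -0.01 over all genes. At an unadjusted p under 0.05, 4 were lower (5.23% of all genes) and 0 higher (3.23%). Kif5a, a kinesin motor of axonal transport, averaged 5.74 ± 1.40 TPM in βNrf2KO and 10.08 ± 1.69 TPM in control pools (SD), a log2 fold change of -0.90 ± 0.24 (SE, edgeR adjusted p = 0.571). Uchl1, a ubiquitin hydrolase abundant in neurons, averaged 16.1 ± 2.8 TPM in βNrf2KO and 26.3 ± 2.2 TPM in control pools, at -0.80 ± 0.24 (edgeR adjusted p = 0.571). Dpysl3, a regulator of growth cones, stood at -0.46 ± 0.16 (edgeR adjusted p = 0.571). These 3 were named because their groups did not overlap. That held for 3 of the 17, all lower, against 3.81% of all genes. The most abundant genes of the list lay near 0, with Map1b at 0.12 ± 0.19, Map2 at 0.12 ± 0.16, both microtubule-associated proteins, and Basp1, a growth cone protein, at -0.15 ± 0.18. The light neurofilament Nefl (-1.05 ± 0.36) and the medium one Nefm (-0.62 ± 0.29) were lower in estimate than the heavy one Nefh (-0.15 ± 0.27), and each pair of groups overlapped.

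Genes of neuronal RNA binding and of the synapse had no common direction. Of 20 tested, 9 were below and 11 above 0, with a median of 0.10, and 0 were called. At an unadjusted p under 0.05, 3 were lower (5.23% of all genes) and 1 higher (3.23%), and with the pool number as a block 6 were lower (6.12% of all genes) and 1 higher (6.02%). Abundant genes of the list, which endocrine cells also use for exocytosis, included Cplx2 at 0.22 ± 0.23, Syn1 at 0.60 ± 0.20 and Snap25 at 0.13 ± 0.17 (log2 fold change ± SE). Syn1, a synaptic vesicle phosphoprotein, had 6.86, 6.86, 7.46 and 7.16 log2 CPM in βNrf2KO pools 1 to 4, against 6.73, 6.14 and 6.59 log2 CPM in control pools (edgeR adjusted p = 0.571). Elavl3, a neuronal RNA-binding protein, lay the other way without overlap, at 1.36 ± 0.24 TPM in βNrf2KO and 2.42 ± 0.80 TPM in control pools (edgeR adjusted p = 0.571). Of the 20, 1 was lower without overlap (3.81% of all genes) and 1 higher (3.19%).

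Among 23 tested genes of autonomic and sensory neurons other than Th, 15 were below and 8 above 0, the median was -0.30, and 0 were called. At an unadjusted p under 0.05, 3 were lower (5.23% of all genes) and 1 higher (3.23%), and with the block 6 were lower (6.12%) and 2 higher (6.02%). Without control pool 2, 0 were lower at that level (1.4% of all genes), and without control pool 4 the median was -0.06. Abundant genes of the list included the neuropeptide gene Npy (0.29 ± 0.26), the receptor Ret (0.27 ± 0.26) and Ddc (0.36 ± 0.20), the enzyme after tyrosine hydroxylase. Of the 23, 1 was lower without overlap, against 3.81% of all genes, and it was named for that. This was Hand2, a transcription factor of sympathetic neurons that mesenchymal cells also use. Hand2 had 2.07, 3.09, 2.88 and 2.76 log2 CPM in βNrf2KO pools 1 to 4, against 3.35, 4.27 and 3.23 log2 CPM in control pools. Its log2 fold change was -0.95 ± 0.31 (SE, edgeR adjusted p = 0.571). Chat, the enzyme that makes acetylcholine, had -1.24 ± 0.56 (edgeR adjusted p = 0.571), and its groups overlapped. It rested on 7 to 11 counts in βNrf2KO pools, against 5, 18 and 40 counts in control pools 1, 2 and 4.

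The Schwann cell and glia list had 18 of 21 other tested genes below 0 with all pools in the fit, against 50.6% of all genes. Besides Sox10 and S100b, 3 genes were above 0, the median was -0.45, and 0 were called. At an unadjusted p under 0.05, 6 were lower (5.23% of all genes), and 4 of the 21 were lower without overlap (3.81%). Without control pool 2, 14 were below 0 (51.4% of all genes), 0 were lower at an unadjusted p under 0.05 (1.4% of all genes), and the median was -0.18. Gpr37l1, a glial receptor, had -0.16, -0.03, -0.02 and 0.21 log2 CPM in βNrf2KO pools 1 to 4, against 0.89, 1.82 and 0.70 log2 CPM in control pools 1, 2 and 4. Every control pool exceeded every βNrf2KO pool, at a log2 fold change of -1.27 ± 0.39 (SE, edgeR adjusted p = 0.571). Dhh, the hedgehog ligand that Schwann cells secrete (-1.46 ± 0.50), Gjc3, a glial gap junction protein (-0.98 ± 0.32), and Cnp, an enzyme of myelinating glia (-0.55 ± 0.24), also did not overlap, each at an edgeR adjusted p of 0.571. Counts of Dhh were low, at 7 to 12 in βNrf2KO pools and 14 to 30 in control pools, so its estimate is loose. For the neuregulin receptor gene Erbb3 (-0.22 ± 0.25) the groups overlapped. The 4 most abundant genes of the list, Ncam1 (0.05 ± 0.21), Ednrb (0.11 ± 0.20), Pmp22 (-0.16 ± 0.17) and Egr2 (-0.18 ± 0.27), are also used by other cells and lay near 0. Gfap and Mag were too low to test, with 2 to 16 and 5 to 17 counts in βNrf2KO pools and 9 to 12 and 10 counts in control pools.

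**Figure D4:**
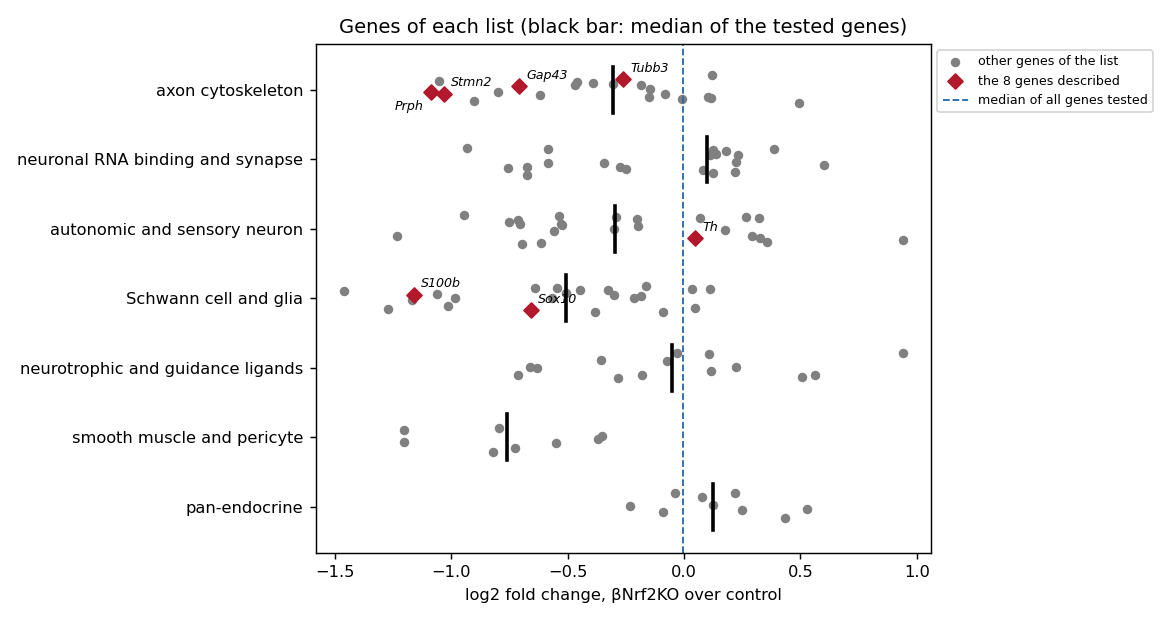
Log2 fold change of βNrf2KO over control (x axis) of each tested gene (points) in 7 gene lists (rows). Red diamonds mark the members that are in these lists, and Stum is in none. Black bars give the median of each list with its members included, -0.31 for the axonal list. The dashed line is the median of all genes. The Schwann cell and the smooth muscle lists lie mostly left of the line, the synapse and pan-endocrine lists on both sides of it.

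Ligands that draw or guide nerve fibres had no common direction, with 8 of 14 below 0, 6 above 0, a median of -0.05 and 0 called. At an unadjusted p under 0.05, 3 were lower (5.23% of all genes) and 1 higher (3.23%). Without overlap between the groups, 3 were lower (3.81% of all genes) and 0 higher (3.19%). Vegfa, which draws vessels and nerves, averaged 362 ± 29 TPM in βNrf2KO and 289 ± 47 TPM in control pools (SD), a log2 fold change of 0.22 ± 0.16 (SE, edgeR adjusted p = 0.642). Nrtn, the neurotrophic factor of parasympathetic fibres, stood at -0.36 ± 0.26, and the repellent Sema3f at -0.07 ± 0.22. Slit2, an axon guidance cue, had 4.65, 4.70, 4.52 and 4.73 log2 CPM in βNrf2KO pools 1 to 4, against 5.59, 5.40 and 4.85 log2 CPM in control pools, with no overlap (-0.66 ± 0.19, edgeR adjusted p = 0.571). Nrg1, a growth factor of Schwann cells, did not overlap either (-0.63 ± 0.28, edgeR adjusted p = 0.571).

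Relatives of the members differed in size, and only the S100 family held both directions. With members included, all 4 stathmins, all 8 β-tubulins and all 3 genes of the Sox10 family were below 0 (50.6% of all genes). Of 10 tested S100 genes, 5 were below and 5 above 0. Among the stathmins, Stmn1 (-0.40 ± 0.18), Stmn3 (-0.39 ± 0.30) and Stmn4 (-0.19 ± 0.50) stood beside Stmn2 (-1.03 ± 0.31), which was chosen for its low value. Among the β-tubulins, the broadly expressed Tubb5 (-0.04 ± 0.21) and Tubb4b (-0.06 ± 0.18) lay near 0, and Tubb2b, a form of developing neurons, had -0.91 ± 0.32 (edgeR adjusted p = 0.571). Of the S100 genes, S100a1 averaged 127 ± 9 TPM in βNrf2KO and 82.2 ± 22.1 TPM in control pools, the opposite direction to S100b, at 0.53 ± 0.20 (edgeR adjusted p = 0.571). S100g, another calcium-binding member, was also higher without overlap, at 1.88 ± 0.77 (edgeR adjusted p = 0.571), from 5 to 23 counts in βNrf2KO pools and 2 to 4 in control pools. Of 9 tested S100 genes other than S100b, 2 were higher without overlap (3.19% of all genes) and 0 lower (3.81%). The factors related to Sox10 were Sox9 (-0.15 ± 0.20), which ductal cells make, and Sox8 (-1.13 ± 0.65).

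Genes of other cells in the preparation also differed in estimate. All 8 smooth muscle and pericyte genes were below 0 (50.6% of all genes), with a median of -0.76. Their summed levels were 619 to 990 TPM in βNrf2KO and 674 to 1699 TPM in control pools. All 7 fibroblast genes were below 0 (median -0.84, 240.2 to 550 TPM in βNrf2KO and 268 to 892 TPM in control pools), as were all 11 tested acinar genes (median -0.96, 252 to 1011 TPM in βNrf2KO and 303 to 1711 TPM in control pools). At an unadjusted p under 0.05, 6 smooth muscle and pericyte, 4 fibroblast and 2 acinar genes were lower (5.23% of all genes) and 0 higher (3.23%). All 7 leukocyte genes (median -0.44) and 5 of 6 erythroid genes (median -0.37) were below 0. Of 7 ductal genes 2 were below and 5 above 0 (median 0.40), and of 7 endothelial genes 1 was below and 6 above 0 (median 0.24). Of 9 pan-endocrine genes, 3 were below and 6 above 0 (median 0.12), and of 10 β-cell genes 2 were below and 8 above 0 (median 0.37). None of these genes was at 0 in all pools. In edgeR without a block 0 of them were called, and the blocked fit called 1, Myh11, a smooth muscle myosin, named after its value was seen. Melanocytes, which also use Sox10 in their lineage, had their defining gene Tyr at 0 counts in all 7 pools. Other genes of their list were present. Dct had 25 to 73 counts in βNrf2KO pools and 21 to 88 in control pools, and Pmel had 13 to 24 and 9 to 33. The part of melanocytes in the Sox10 values was not tested. The part of tissue around the islet in the values of the 8 genes was not tested.

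Pairs of the 8 genes differed in how closely they varied together over these pools, with r from -0.41 to 0.96. After removal of each group's mean, the correlation of log2 CPM over the 7 pools was above 0 in 24 of 28 pairs, with a median r of 0.46. It was highest between Stum and Sox10 (r = 0.96, and 0.89 over 6 pools without control pool 2), then Prph and Gap43 (0.89, and 0.81 without that pool) and Stmn2 and Gap43 (0.82, and 0.93 without it). Stmn2 and Stum, both included for the same contrast, had r = 0.27. Th had r from -0.41 to 0.55 with the others, and from -0.21 to 0.81 over 6 pools without control pool 2. These values describe 7 libraries that share their preparation and scaling, and carry no test.

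Ranked by the same measure among 12572 genes over 7 pools, the 4 genes most like Stmn2 were Rab12, Fbxo45, Onecut2 and Adora2a (r = 0.99 to 0.98). For Stum they were Nup153, Rasal2, Zfhx3 and Setd1a (r = 1.00 to 0.99), and for Sox10 Setd2, Pip5k1c, Nhs and Naf1 (r = 1.00 to 0.98). Control pool 2 stood apart for both, with 4.85 log2 CPM of Stum against 4.04 and 4.06 in control pools 1 and 4. For Sox10 it had 4.22 log2 CPM, against 3.13 and 3.00. The ranking was not repeated without control pool 2, so how far these values rest on that pool was not tested.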

How the data were processed

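RNA of islets from 7-day-old mice was measured in 4 βNrf2KO and 3 control pools of 5 animals each, as ribosome-depleted total RNA libraries. The authors deposited raw counts for each gene. Tools named by the submitters' processing notes are bcl2fastq 2.20, Trimmomatic 0.36, STAR 2.5.2b and featureCounts (Subread 1.5.2). How strand and multiply mapped reads were handled, and which annotation release was used, is not given in the sources used here. Although those notes name GRCm39, 91.4% of the IDs that the files share with GENCODE M21 have identical bounds in GRCm38, so the deposited coordinates are given in that build. Genes that overlap Stum, Tubb3, Gap43 and S100b share 0 exonic bases with them.

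From the deposited counts, the Cre entry was left out and genes were tested with edgeR 4.0.16 in R 4.3.3 (TMM, filterByExpr by group, robust two-sided quasi-likelihood test, Benjamini-Hochberg over 19893 genes, threshold 0.05). Log2 CPM used a prior count of 2. TPM used the exonic lengths in the files. The p-values measure the spread between pools. Limits set by a count of 0 cover only counting error, because PCR copies were not marked.

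The members and lists were chosen with earlier results of these data known. Named genes were all 8 members, their family relatives and, per list, up to 4 with the highest TPM and up to 4 with the smallest p among those without overlap. Nefl, Nefm, Nefh, Chat, Dbh, Slc6a2, Myh11, Erbb3, Gfap, Mag, Tyr, Dct and Pmel were named outside that rule, after their values were seen, as were the motifs TATAAA and TGACGTCA. Some genes that the rule names are not reported here.

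The labels do not say what the pool numbers stand for. With group means subtracted, residuals of same-number pools had a correlation over genes of 0.376 for number 1, 0.229 for number 2 and 0.323 for number 4. Pools of different numbers had -0.353 to 0.241. The 2 sets of values met, since βNrf2KO pool 3 with control pool 4 (0.241) exceeded the pair of number 2 (0.229). A pairing by number is therefore not established. The main fit does not use the numbers, and blocking on them was an alternative. Further alternatives were scaling by RLE or by the upper quartile, library sizes that omit mitochondrial genes, no filter, 1 CPM in 3 pools, DESeq2 1.42.0, voom with quality weights (limma 3.58.1), an acinar covariate, a threshold of 0.1 and leaving out each pool.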

Additional observations from a re-analysis of the deposited data

Results flagged for a closer look

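In groups of 4 pools, a pool was singled out where its distance to the nearest other pool, over the range of the group, passed Dixon's critical value at the 95% level. This was asked of 38 genes in the βNrf2KO pools and met by 5, while chance gives about 1 in 20. Stmn2 had 4.38 log2 CPM in βNrf2KO pool 3, against 3.14 to 3.34 in the other 3. Th had 4.22 log2 CPM in βNrf2KO pool 1, against 4.85 to 4.97 in the others. S100b had -2.10 log2 CPM in βNrf2KO pool 2, from 3 counts, against -0.56 to -0.45. Egr2 had 4.57 log2 CPM in βNrf2KO pool 2, against 3.54 to 3.71. Nrg1 had 1.35 log2 CPM in βNrf2KO pool 1, against 2.15 to 2.27.

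Cre recombinase sequence, which no comparison used, averaged 2.10 ± 1.07 CPM in the 4 βNrf2KO pools (SD), against 0 counts in every control pool. Against the limit that 0 counts allow (3 counts per library, 0.127 CPM on average), this is at least 16.5-fold higher.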

How the results depend on the processing

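The count of genes past an adjusted p of 0.05 was 0 with all pools. It was 2 in DESeq2, 14 with the pool number as a replicate block, and 0 to 1 when each pool was left out, with the 1 gene found without control pool 4. The cause was not tested. In the other settings it was 0, also at a threshold of 0.1. With all pools 1683 genes (8.46%) had an unadjusted p under 0.05, against 997 with the acinar covariate, 1236 in voom, 1898 in DESeq2, 2415 with the block, 2620 without a filter, and 475 (without control pool 2) to 3446 (without control pool 4) when each pool was left out. The block changed no call of the 6 genes tested. Th, at 0.05 with all pools, reversed to -0.034 with the acinar covariate, -0.038 without control pool 1, -0.093 without control pool 2 and -0.031 without βNrf2KO pool 2. Tubb3 reversed to 0.026 without control pool 4. When each pool was left out, log2 fold changes ranged from -1.40 to -0.87 for Stmn2, -1.27 to -0.79 for Prph, -1.31 to -0.86 for Stum, -0.96 to -0.45 for Gap43, -0.48 to 0.026 for Tubb3, -0.093 to 0.30 for Th, -0.88 to -0.17 for Sox10 and -1.50 to -0.53 for S100b. The medians of the lists ranged from -0.33 to -0.17 (axonal), -0.07 to 0.20 (synaptic), -0.46 to -0.06 (autonomic and sensory), -0.63 to -0.18 (Schwann cell and glia) and -0.28 to 0.01 (ligands). Depth limits S100b most, at 3 to 30 counts per pool.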
